A study of Mus musculus with 6 samples.

Results

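The 39 Hox genes measured here make up the 4 mouse Hox clusters, HoxA to HoxD. They were found by symbol, as every gene named Hox followed by a cluster letter and a paralogue number, through the RefSeq accession of each array probe. They were carried by 46 of the 56605 probes on the array, out of 23462 genes that could be named. The tissue was colon of male mice, 3 controls and 3 with a knockout of Islr, a secreted leucine-rich repeat protein, with 1 array per animal. By the sample source, every animal of both groups had drunk 3.5% dextran sulfate sodium (DSS), which injures the colonic epithelium, for 5 days and had then recovered for 1 day. The treatment field of the same labels states no treatment, so the DSS course rests on the sample source. Strain, age, the knockout allele and the cells in which Islr was lost are not given in the sources used here, and the design text says only that the samples were flow separated, without naming the cells kept.

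Hox genes encode homeodomain transcription factors whose order along a cluster matches where along the head-to-tail axis they are expressed. Low-numbered paralogues lie at the 3′ end of a cluster and act towards the head, and high-numbered paralogues lie at the 5′ end and act towards the tail. In the gut this code is laid down in the embryo mainly in the mesenchyme, and the muscle and connective tissue of the adult colon keep much of it, while Hoxb13 marks the distal colon and rectum. Caudal factors (Cdx1, Cdx2 and Cdx4) act upstream of Hox genes in the posterior embryo, and Pbx and Meis proteins bind DNA together with Hox proteins.

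The sequences given here show the stretch just upstream of 5 transcription starts. They belong to the 2 highest and the 2 lowest Hox genes with an unadjusted p under 0.05 and a window in the table, Hoxa13 and Hoxa6 of HoxA and Hoxb4 and Hoxb8 of HoxB, and to Hottip, a long non-coding RNA beside Hoxa13. Each is 250 bases from RefSeq on GRCm38.p6, written 5′ to 3′ on the strand of the gene, and capitals mark TTTAT, the core recognised by caudal proteins, or its reverse complement ATAAA.
Hoxa13, chr6:52260881-52261130, minus strand: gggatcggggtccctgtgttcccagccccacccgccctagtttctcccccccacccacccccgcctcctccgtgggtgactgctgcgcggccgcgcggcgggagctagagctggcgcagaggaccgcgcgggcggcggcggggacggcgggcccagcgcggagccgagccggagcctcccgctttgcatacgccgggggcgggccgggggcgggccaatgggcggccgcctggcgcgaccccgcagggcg
Hoxa6, chr6:52208673-52208922, minus strand: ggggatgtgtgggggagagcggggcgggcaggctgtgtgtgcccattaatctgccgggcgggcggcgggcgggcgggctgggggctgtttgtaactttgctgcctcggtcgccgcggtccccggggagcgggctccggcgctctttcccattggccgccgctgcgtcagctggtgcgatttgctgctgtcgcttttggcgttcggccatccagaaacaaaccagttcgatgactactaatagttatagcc
Hottip, chr6:52262525-52262774, plus strand: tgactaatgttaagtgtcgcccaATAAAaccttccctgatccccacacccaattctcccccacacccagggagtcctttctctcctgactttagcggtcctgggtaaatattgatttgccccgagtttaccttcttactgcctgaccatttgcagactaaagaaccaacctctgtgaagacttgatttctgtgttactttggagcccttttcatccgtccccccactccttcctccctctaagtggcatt
Hoxb4, chr11:96318017-96318266, plus strand: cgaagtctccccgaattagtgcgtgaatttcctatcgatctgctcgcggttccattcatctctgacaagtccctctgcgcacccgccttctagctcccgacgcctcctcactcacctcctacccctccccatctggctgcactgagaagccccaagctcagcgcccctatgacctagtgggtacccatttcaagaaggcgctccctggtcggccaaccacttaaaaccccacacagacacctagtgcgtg
Hoxb8, chr11:96281655-96281904, plus strand: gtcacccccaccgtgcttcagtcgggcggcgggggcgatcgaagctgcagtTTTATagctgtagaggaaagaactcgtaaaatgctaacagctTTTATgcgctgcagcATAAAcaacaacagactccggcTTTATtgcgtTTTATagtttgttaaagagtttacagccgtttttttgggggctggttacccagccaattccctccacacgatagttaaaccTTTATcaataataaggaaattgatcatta
The Hoxa13 window held 0 matches to TTTAT and 35 CpG dinucleotides, and 80.0% of its bases were G or C. The neighbouring Hottip window, on the opposite strand, held 1 match and 4 CpG dinucleotides at 48.4% G or C. The Hoxa6 and Hoxb4 windows held 0 matches each, with 24 and 14 CpG dinucleotides at 65.2% and 58.0% G or C, so Hoxb8 was the 1 Hox window of these 4 with any match. The Hoxa6 window lies within the Hoxa3 and Hoxaas3 gene models and the Hoxb4 window within that of Hoxb3. The Hoxb8 window held 6 matches and 12 CpG dinucleotides at 44.4% G or C, and it lies within a longer annotated Hoxb8 model, upstream of a second start. A TTTAT match on either strand was present in 9 of the 24 windows found for 22 Hox genes and in 37.3% of all 32851 windows in the table. The site TGATNNAT, at which Hox and Pbx proteins can bind together, was found on either strand in 4 of the 24 Hox windows, Hoxb8 among them, and in 7.68% of all windows. The TATA box letters TATAAA, which overlap ATAAA, were in 4 Hox windows and 12.4% of all windows. These matches describe letters in the windows and were not set against any measured binding.

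Values are log2 signals relative to the 75th percentile of the same array, so 0 is that percentile, and differences are knockout minus control. They compare a probe between animals, not 1 probe with another. The 75th percentile ranged from 6352.7 to 7110.5 intensity units on the control arrays and from 4910.5 to 5820.0 on the knockout arrays, and 69.4% to 75.4% of spots were well above background. The controls were printed in 1 row of a single slide and the knockouts in the other row, so position on the slide and genotype cannot be told apart. Islr itself was at 1.57, 1.24 and 1.21 in controls 1 to 3 and at -1.40, -0.93 and -1.31 in knockouts 1 to 3. Its difference was -2.44 (SE 0.21, limma adjusted p = 0.0171), a 5.42-fold lower signal with each knockout below each control. The control 1 spot was flagged as an outlier by the scanner software and was left out of that test. With it kept, the Islr difference was -2.55 (SE 0.20, limma adjusted p = 0.00741). All 10 markers of colon epithelium were well above background on all 6 arrays. The labels do not say that the animals came from separate litters or cages, so p-values measure the spread between these 6 samples.

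Most of the Hox code was measurable in this colon tissue. Of the 39 genes, 27 could be tested, meaning that in at least 1 group a probe exceeded background on every array, and that both groups kept 2 or more usable values. HoxA contributed 8 of its 11 genes, HoxB 7 of 10, HoxC 4 of 9 and HoxD 8 of 9. Hoxa5, Hoxa10, Hoxb2 and Hoxb5 were bright on all 6 arrays, but the scanner software had marked too many of their spots as non-uniform. Such marks fell on 33 of the 276 Hox spots, and marked spots were treated as missing in the tests. Hoxa4 and Hoxc11 were well above background on 2 control arrays and 1 knockout array each. Hoxb1, Hoxc6, Hoxc8, Hoxc12, Hoxc13 and Hoxd1 were not well above background on any array, so 4 of these 6 genes belong to HoxC.

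No Hox gene passed the 5% false discovery rate. The count was 0 of 27, where 3.97% of the 35351 tested probes passed (1.55% higher and 2.42% lower in the knockouts), and the lowest adjusted p values among Hox genes were 0.0729 for Hoxa6 and 0.0738 for Hoxb13 (limma). With the marked spots kept, 31 genes could be tested and again 0 passed, beside 4.85% of all probes. At an unadjusted p under 0.05 there were 11 of 27 Hox genes, 7 higher and 4 lower, beside 26.8% of all tested probes (12.8% higher and 14.1% lower). With array weights, which let limma down-weight variable arrays, 8 Hox genes passed at 5%, but so did 26.3% of all probes, and the weights ran from 0.335 for control 1 to 3.72 for control 2. The 6 higher ones under those weights were Hoxa2, Hoxa3, Hoxa6, Hoxa13, Hoxb9 and Hoxb13, and the 2 lower ones were Hoxb4 and Hoxb7. The median difference over the 27 genes was 0.18, with 17 above 0 and 10 below, beside 0.00 over all tested probes. The Hox median was -0.00 without control 1 (28 genes), 0.044 without knockout 3 (24 genes) and 0.30 without control 3 (25 genes). Its direction thus rests on single animals and on which genes could then be tested.

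**Figure D1:**
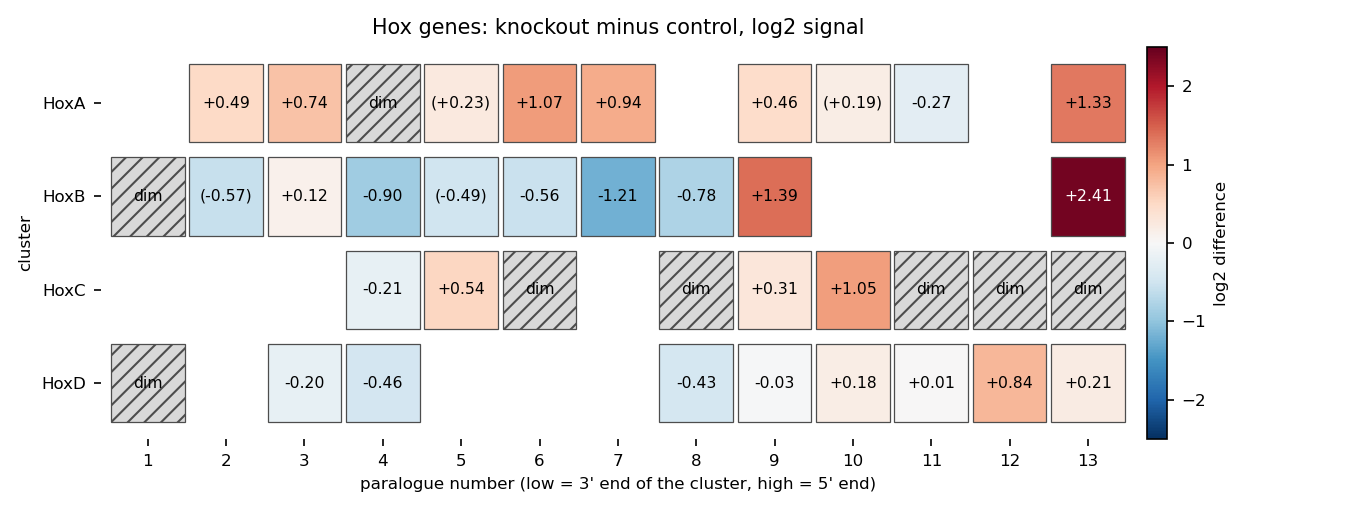
Difference (knockout minus control, log2 signal) for the Hox genes, with clusters as rows and paralogue number from the 3′ end (1) to the 5′ end (13) as columns; red is higher and blue lower in the knockouts. Values in brackets come from genes that could be compared only with marked spots kept, hatched cells marked "dim" were not well above background on all arrays of either group, and empty positions have no gene with a probe or are not shown. The cells from Hoxb4 to Hoxb8 are all blue, with Hoxb5 in brackets, while Hoxb9 at 1.39 and Hoxb13 at 2.41 are red.

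Along the paralogue axis, the medians were -0.06 for the 8 tested genes of groups 1 to 4, 0.31 for the 11 of groups 5 to 9 and 0.52 for the 8 of groups 10 to 13, where 7 of 8 lay above 0. The median of groups 10 to 13 was 1.30 without knockout 2 and 0.063 without control 1. Leaving out 1 array thus moved it by more than the step between the groups, but also changed which genes could be tested. Without knockout 2, Hoxa11 and Hoxd13 were not tested. The median of groups 1 to 4 turned to 0.11 without control 2 and 0.091 without knockout 1, and that of groups 5 to 9 was 0.099 without knockout 1. By cluster the medians were 0.62 for HoxA (7 of 8 above 0), -0.56 for HoxB (3 of 7), 0.42 for HoxC (3 of 4) and -0.01 for HoxD (4 of 8). Hoxc10, counted in groups 10 to 13 and in HoxC, was well above background on 1 control array and all 3 knockout arrays. It was thus tested only because of the knockouts. With Hoxc10 left out, the median of groups 10 to 13 was the value of Hoxd13, 0.21, below the 0.31 of groups 5 to 9. The rise along the axis thus depends on Hoxc10. Without the filter on dim probes, which adds genes near background, the median was 0.24 for groups 10 to 13 and 0.31 for groups 5 to 9.

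The 5′ end of HoxB held the widest Hox difference. Hoxb13, the most 5′ gene of its cluster, was at 0.68, -1.33 and 0.74 in controls 1 to 3 and at 3.11, 1.79 and 2.41 in knockouts 1 to 3. All 3 knockouts lay above all 3 controls, and control 2 stood about 2 log2 units below the other controls. The difference was 2.41 (SE 0.62, 5.31-fold, adjusted p = 0.0738), and it was 1.73 (adjusted p = 0.119) without control 2. Hoxb9, known for its part in patterning the thoracic skeleton, was at -0.16, -1.46 and -0.78 in the controls and at 1.28, 0.24 and 0.25 in the knockouts. The groups again did not overlap, and control 2 was again the lowest array. Its difference was 1.39 (SE 0.42, adjusted p = 0.0965), and a second Hoxb9 probe, well above background on 1 control array and all 3 knockout arrays, gave 1.58 (SE 0.63, adjusted p = 0.169).

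The middle of the same cluster lay on the other side of 0. Of the 5 tested genes from Hoxb3 to Hoxb8, 4 were below 0, with a median of -0.78; with marked spots kept, 6 of the 7 genes from Hoxb2 to Hoxb8 were below 0, with a median of -0.57. This division of HoxB was drawn after the values had been seen. Hoxb7 had the most negative difference: it was at -1.19, -0.94 and -1.53 in the controls and at -3.24, -1.93 and -2.12 in the knockouts, with knockout 1 the lowest. That is a difference of -1.21 (SE 0.37, adjusted p = 0.100), and it was -0.80 without knockout 1.

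Hoxb4, best known for its part in blood stem cells, was at -0.32, -0.11 and -0.51 in the controls, the last a marked spot, and at -1.70, -0.91 and -0.71 in the knockouts. Every knockout was below every control, and the difference without the marked spot was -0.90 (SE 0.33, adjusted p = 0.159). Hoxb6 was tight in the controls, at -2.80, -2.83 and -2.84, and spread in the knockouts, at -3.97, -2.88 and -3.27. Knockout 2 lay only just below the controls, so the difference of -0.56 (SE 0.28, adjusted p = 0.256) came mainly from the other two, and it was -0.26 without knockout 1. Hoxb8, a gene used to hold myeloid progenitors in culture, was at -3.43, -3.39 and -4.22 in the controls and at -4.90, -4.04 and -4.43 in the knockouts, where the groups overlapped. The Hoxb8 difference was -0.78 (SE 0.32, adjusted p = 0.175) and -0.62 (SE 0.22, adjusted p = 0.136) with a second probe that was well above background on all 3 control arrays and 1 knockout array. In these 3 genes and in Hoxb7, knockout 1 was the lowest array.

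Hoxb2 and Hoxb5 were compared only with marked spots kept. Hoxb2, a hindbrain patterning gene, was at 0.13, 0.38 and 0.12 in the controls and at -0.98, 0.03 and -0.12 in the knockouts, a difference of -0.57 (SE 0.29, adjusted p = 0.248), with 4 of the 6 spots marked. Hoxb5, which acts in the neural crest cells that build the gut's nerve plexus, was at -0.94, -1.08 and -0.87 against -1.84, -1.13 and -1.38, a difference of -0.49 (SE 0.21, adjusted p = 0.197), with 3 spots marked. Neither pair of groups overlapped, though knockout 2 came close to the lowest control for both genes. Hoxb3 was the exception of this stretch, at 0.12 (SE 0.25, adjusted p = 0.796), and it was below 0 without control 1. The Hoxb3 gene model overlaps that of Hoxb4, 1 of 6 such overlapping Hox pairs involving 10 genes, so a probe may capture a neighbour's transcript.

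**Figure D2:**
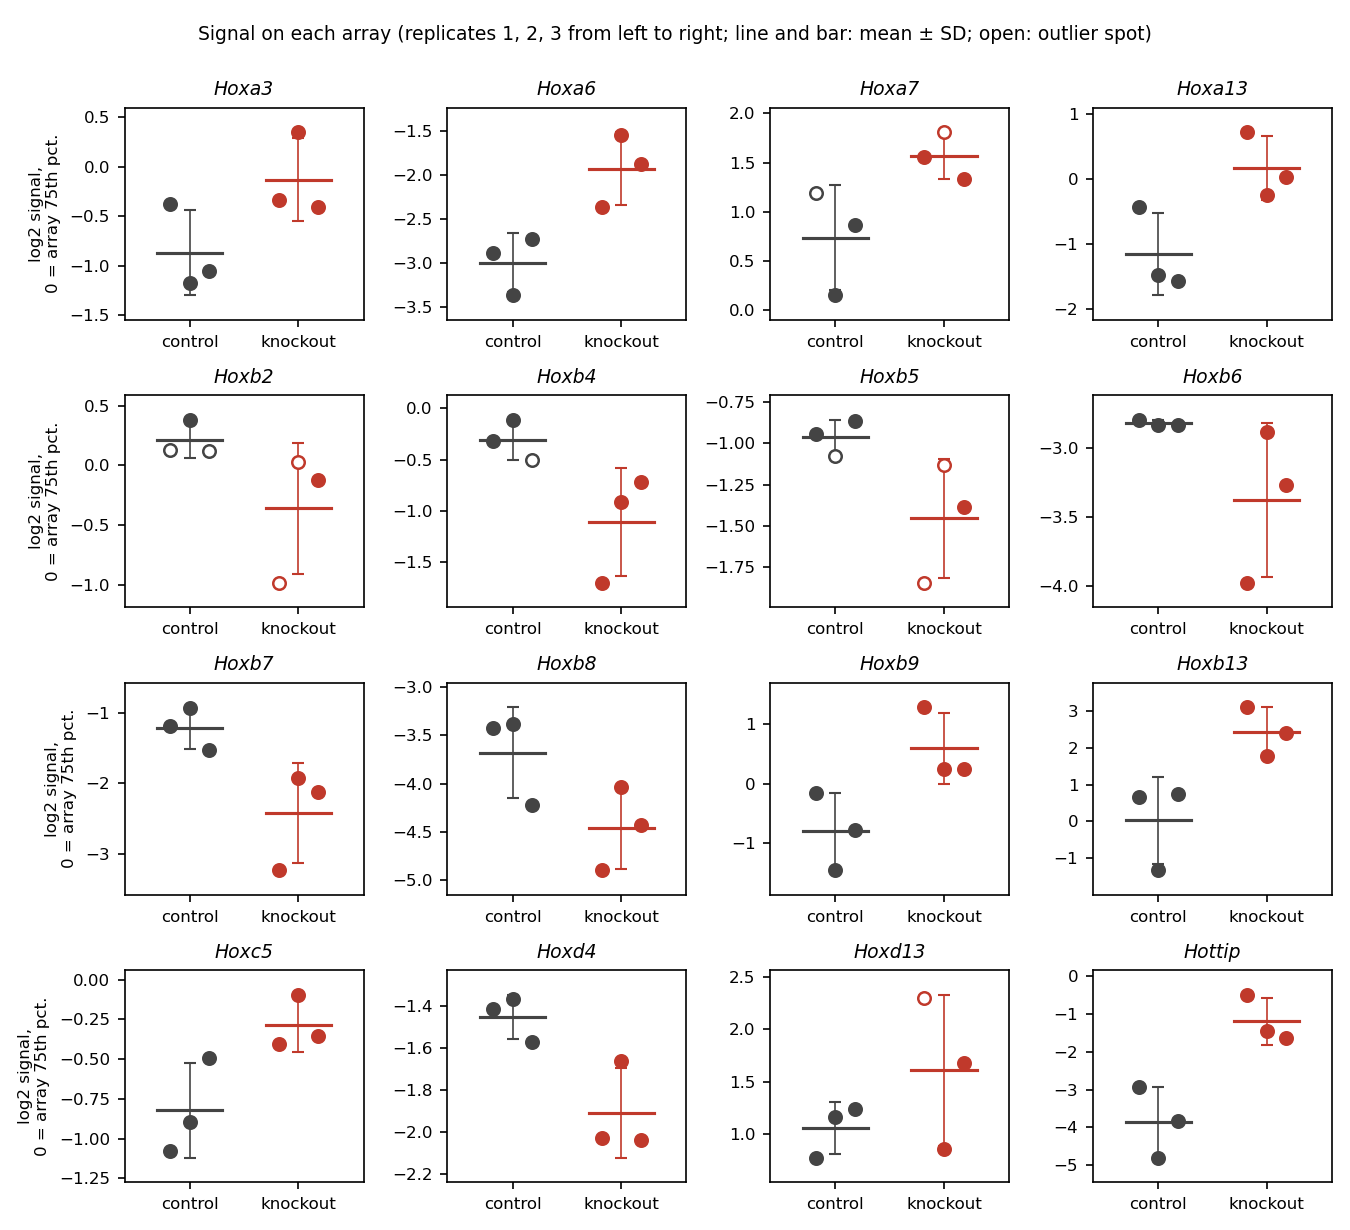
Signal of each array for 15 Hox genes and Hottip (log2 signal, 0 is the array's 75th percentile), with replicates 1, 2 and 3 from left to right in each group, mean and SD over all 3 arrays as line and bar, and open circles for spots marked as outliers. Each panel has its own axis. Hoxb13, Hoxb9, Hoxa13 and Hottip have every knockout above every control, and Hoxb7 and Hoxb4 every knockout below.

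HoxA was above 0 along nearly its whole length. Hoxa13, needed for the formation of the hindgut and the genital tract, was at -0.43, -1.47 and -1.57 in the controls and at 0.72, -0.24 and 0.03 in the knockouts. Every knockout exceeded every control, although control 1 reached almost to knockout 2. The difference was 1.33 (SE 0.38, 2.51-fold, adjusted p = 0.0908); without control 1 it was 1.69 and passed (adjusted p = 0.0436), in a comparison where 5.83% of all probes passed. Hoxa6 was at -2.89, -3.37 and -2.73 in the controls and at -2.37, -1.54 and -1.87 in the knockouts, again without overlap. Its difference of 1.07 (SE 0.27, 2.10-fold) had the lowest adjusted p of the Hox genes, 0.0729, and passed at 5% when the arrays were scaled by quantile normalization (adjusted p = 0.0489), by their medians (0.0457) or with normexp background correction (0.0438). Hoxa6 lies within the span of the Hoxa3 gene model.

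Hoxa3, which acts in the development of the thymus and parathyroid, was at -0.37, -1.18 and -1.06 in the controls and at -0.34, 0.35 and -0.40 in the knockouts. Control 1 lay among the knockouts, and the difference was 0.74 (SE 0.30, adjusted p = 0.176), with 0.54 (SE 0.23, adjusted p = 0.190) from a second probe. Hoxa7 was at 1.19, 0.15 and 0.87 in the controls and at 1.56, 1.81 and 1.34 in the knockouts, where the values of control 1 and knockout 2 came from marked spots. Its groups did not overlap, and the difference on the remaining 2 arrays per group was 0.94 (SE 0.31, adjusted p = 0.149). Hoxa2 and Hoxa9 were above 0 by 0.49 and 0.46, each with overlapping groups. Hoxa5 and Hoxa10, compared only with marked spots kept, were above 0 by 0.23 and 0.19, and a second, dimmer Hoxa10 probe gave 0.78 with no overlap. Hoxa11 was the only tested HoxA gene below 0, at -0.27 (SE 0.26, adjusted p = 0.549), and at -0.68 (adjusted p = 0.186) when its 2 marked spots were kept.

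HoxC and HoxD differed less. Hoxc5 was at -1.08, -0.90 and -0.49 in the controls and at -0.40, -0.09 and -0.36 in the knockouts. The groups were apart by a narrow margin, and the difference was 0.54 (SE 0.20, adjusted p = 0.151). Hoxc10, a posterior HoxC gene, was well above background on 1 control array and all 3 knockout arrays, at -5.74, -6.17 and -5.32 against -3.63, -5.36 and -5.09, a difference of 1.05 (SE 0.48, adjusted p = 0.214). Knockout 1 alone stood clear of the other arrays for Hoxc10. Hoxc4 and Hoxc9 gave -0.21 and 0.31. Hoxc13, the most 5′ HoxC gene and known from hair and nail, was not well above background on any array.

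Hoxd4 was the 1 HoxD gene with no overlap, at -1.41, -1.37 and -1.57 in the controls and at -2.03, -1.66 and -2.04 in the knockouts. The difference was -0.46 (SE 0.17, adjusted p = 0.146), and Hoxd3 and Hoxd8 were also below 0, at -0.20 and -0.43. Hoxd13, which acts with Hoxa13 in the hindgut and limb, was at 0.77, 1.16 and 1.24 in the controls and at 2.30, 0.85 and 1.68 in the knockouts, the first of these a marked spot. Its groups overlapped, and the difference was 0.21 (SE 0.31, adjusted p = 0.705) without that spot and 0.55 (SE 0.37, adjusted p = 0.373) with it. Of the 3 paralogue 13 genes above background, Hoxb13 and Hoxa13 thus had groups that did not overlap, and Hoxd13 had groups that did.

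The 5 genes from Hoxd9 to Hoxd13 shared an order among the animals that did not follow genotype. In all 5, control 1 was the lowest control and knockout 2 the lowest knockout. Hoxd11 shows this pattern most widely, at -3.83, -2.69 and -2.94 in the controls and at -2.33, -4.15 and -2.95 in the knockouts. Hoxd10 was at -2.43, -1.10 and -1.27 against -0.98, -2.09 and -1.17, and Hoxd12 at -3.17, -2.24 and -2.60 against -1.58, -2.59 and -1.34. Differences between the groups were within 1 SE for Hoxd10, at 0.18 (SE 0.44), and for Hoxd11, at 0.01 (SE 0.51), while Hoxd12 differed by 0.84 (SE 0.39, adjusted p = 0.222). This order was noticed after the values were seen, and the models of Hoxd10 and Hoxd11 overlap. The signs of Hoxd9, Hoxd10 and Hoxd11 changed with the array left out, that of Hoxd9 also with median scaling, and Hoxd10 and Hoxd11 were at -0.26 and -0.50 with array weights.

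Counting overlap alone, with marked spots kept, 12 of the 31 Hox genes above background had groups that did not overlap, where 34.9% of all 40172 such probes did not (17.3% with the knockouts higher and 17.6% lower). The 6 higher were Hoxa6, Hoxa7, Hoxa13, Hoxb9, Hoxb13 and Hoxc5. The 6 lower were Hoxb2, Hoxb4, Hoxb5, Hoxb6, Hoxb7 and Hoxd4. The Hox total was near the array's own share. Each Hox gene was counted by its brightest probe. By their dimmer probes, the groups did not overlap for Hoxa3, Hoxa10 and Hoxb8 and did overlap for Hoxb9, so membership depends on the probe. The 3 non-overlapping HoxA genes were all higher in the knockouts, and 5 of the 7 in HoxB were lower, a difference between clusters that was not tested. All 7 Hox genes with 2 probes gave the same sign with both. The 14 tested Hox genes outside the rule for array-by-array values ranged from -0.43 to 1.05, with adjusted p from 0.214 to 0.994.

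Neighbours of the clusters gave the single call of this region. Hottip, a non-coding RNA that helps keep 5′ HoxA genes active through the Wdr5 complex, was at -2.94, -4.81 and -3.85 in the controls and at -0.48, -1.45 and -1.65 in the knockouts. All knockouts were above all controls, control 2 was again lowest, and Hottip rose by 2.67 (SE 0.52, 6.38-fold, adjusted p = 0.0465). The call was lost without any 1 of the arrays except control 1, with differences between 2.20 and 3.14 and adjusted p between 0.0332 and 0.117. Evx1, a homeobox gene just beyond Hoxa13, was at -3.99, -6.40 and -3.68 in the controls and at -2.34, -1.65 and -1.45 in the knockouts, a difference of 2.88 (SE 0.71, adjusted p = 0.0685). Evx1 was well above background on 2 control arrays and all 3 knockout arrays, so it was tested only because of the knockouts. It did not pass in the main test and passed with normexp correction (adjusted p = 0.0391) and with array weights (0.0145). Under those weights 26.3% of all probes passed, and control 2, the lowest array for Evx1, had the highest weight (3.72). Of 14 listed cluster neighbours and non-coding RNAs, 8 were on the array and 7 tested. Of these 7, 6 were above 0 and 1 passed, beside 3.97% of all tested probes, and the median was 0.61. Hoxa11os was at 0.61 (adjusted p = 0.124) and Evx2, the neighbour of Hoxd13, at -0.06. Hottip and Evx1 were singled out after their values were seen.

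Factors that work with or upstream of Hox genes gave no call. The cofactors of the Pbx, Meis and Pknox families had 7 of 9 values below 0 and a median of -0.21, the lowest being Pknox2 at -0.88 (adjusted p = 0.0919). Among Caudal and ParaHox genes, Cdx1 was at 1.22, -1.63 and 0.67 in the controls and at 2.52, 1.67 and 2.01 in the knockouts, a difference of 1.98 (SE 0.71, adjusted p = 0.140). Cdx2, the master regulator of intestinal epithelium, was at 1.01, -3.10 and -0.26 against 0.88, 1.46 and 0.40, a difference of 1.69 (SE 0.98, adjusted p = 0.313). Control 2 was lowest for both, and control 1 lay within the knockout range for Cdx2. Pdx1 was not well above background on any control array and was at least 1.44-fold higher in the knockouts. Its limma adjusted p of 0.0795 belongs to the measured difference of 1.34, not to this bound. Gsx1 differed by 0.23, and Cdx4 and Gsx2 were not well above background on any array. The median of the 4 tested genes was 1.52, and 1.11 with Pdx1 at its bound.

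Chromatin and axial signal genes lay close to 0. Of 14 tested Polycomb genes, which keep Hox genes silent, 10 were below 0 with a median of -0.21; of 8 tested Trithorax genes, which keep them active, 5 were above 0 with a median of 0.11; no probe that stood for a gene passed in either list. A dimmer probe of Rnf2, a Polycomb ring protein, did pass (limma adjusted p = 0.0420 for the measured difference). Its signal was at least 1.3-fold lower in the knockouts, a bound that was not itself tested. That probe was not well above background on any knockout array, and the probe that stood for Rnf2 gave -0.54 (SE 0.15, adjusted p = 0.0826). Retinoic acid, the embryonic inducer of 3′ Hox genes, was represented by 10 tested genes with 6 below 0, a median of -0.14 and none past the threshold.

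Markers of position along the colon were set beside the posterior Hox genes. Of 5 tested markers of distal colon, 4 were above 0, with a median of 1.49 and none past the threshold. Atp12a, the colonic proton pump, was at 0.49, -2.24 and -1.13 in the controls and at 2.74, 1.14 and 2.59 in the knockouts (difference 2.83, SE 0.86, adjusted p = 0.110). The knockout 1 value of Atp12a came from a marked spot left out of that test. With it kept, the difference was 3.12 (SE 0.74, limma adjusted p = 0.0604). Wfdc2 was at 0.50, -1.70 and 0.42 against 2.97, 1.85 and 2.34 (2.65, SE 0.62, adjusted p = 0.0639). Both markers had every knockout above every control and control 2 lowest. Insl5, a hormone of distal colon endocrine cells, differed by 1.49 (SE 0.74, adjusted p = 0.264) and Scnn1g, a sodium channel subunit, by 1.41 (SE 1.09, adjusted p = 0.447), but Scnn1g was well above background on 1 control array and all 3 knockout arrays, so it was tested only because of the knockouts. Its partner Scnn1b differed by -0.10 (SE 0.21, adjusted p = 0.799), at -3.26, -3.21 and -2.89 in the controls and -3.56, -3.01 and -3.08 in the knockouts. Cldn8 had too many marked spots to be tested, and with those kept it differed by 3.02 (SE 0.55, adjusted p = 0.0385).

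Markers of proximal colon were above 0 as well. Cyp2c55, an enzyme of proximal colon epithelium, was at 2.29, -3.73 and -0.43 in the controls and at 1.90, 2.04 and 1.93 in the knockouts (difference 2.61, SE 1.64, adjusted p = 0.361). The knockout 1 value of Cyp2c55 came from a marked spot left out of that test. With it kept, the difference was 2.58 (SE 1.35, limma adjusted p = 0.266). Control 1 exceeded every knockout for Cyp2c55, whereas control 2 was far below. Mptx1 differed by 1.75 (SE 0.65, adjusted p = 0.162), Fabp1, likewise well above background on 1 control array and all 3 knockout arrays, by 1.07 (SE 0.37, adjusted p = 0.129), and Onecut2 by 0.06 (SE 0.18, adjusted p = 0.849), so that the median of the 4 tested genes was 1.41. The proximal and distal lists thus had like medians, and neither gave a call in the main test. With marked spots kept, the distal marker Cldn8 passed and no proximal marker did. Summed over the list, with the 75th percentile of an array as 1 unit, proximal markers were at 13.5, 1.44 and 4.62 in the controls and at 21.4, 15.7 and 14.5 in the knockouts. Distal markers summed to 7.04, 1.51 and 3.59 against 24.6, 10.4 and 19.2.

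Markers common to colon epithelium were above 0 too. All 9 tested epithelial markers lay above 0, with a median of 1.16 and none past the threshold, and their sum was 63.8, 18.7 and 44.8 in the controls and 98.9, 72.3 and 75.4 in the knockouts. Control 2, the lowest for Hoxb13, Hoxb9, Hottip, Evx1, Cdx1 and Cdx2, was also the lowest for the epithelial, distal and proximal sums. It was the lowest for the smooth muscle, squamous and small intestine sums too. In RNA from a whole sample, more cells of a type and more RNA per cell cannot be told apart. The design text calls the samples flow separated without naming the cells kept, and how that bears on these sums was not tested. The part of the epithelial or smooth muscle share in the Hox values was not tested. Smooth muscle markers, which mark a layer that carries much of the adult Hox code, were above 0 in 6 of 6 genes with a median of 0.36. Their sums were 55.4, 44.3 and 48.7 in the controls and 71.6, 61.0 and 64.9 in the knockouts.

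Other cell types lay on the side of the middle HoxB genes. Fibroblast markers were below 0 in 6 of 6 tested genes (median -0.52, sums 33.6 to 39.4 against 22.2 to 29.8), enteric nervous system markers in 6 of 6 (median -0.44, sums 13.8 to 15.1 against 10.2 to 12.5) and endothelial markers in 4 of 4 (median -1.35, sums 6.57 to 7.66 against 1.45 to 3.93). None of these genes passed the threshold. Knockout 1, the lowest array for Hoxb4 to Hoxb8, also had the lowest sum for each of these 3 lists. Of the 6 arrays it also had the lowest 75th percentile (4910.5), the fewest spots well above background (69.4%) and the most marked spots (16%). The part of these cells or of array quality in the HoxB values was not tested. Of 6 neutrophil markers, 5 passed and were lower (Cxcr2, Mmp9, Retnlg, S100a8 and S100a9), beside 2.42% of all tested probes. Their differences ran from -1.93 for Cxcr2 to -4.47 for Retnlg, with adjusted p from 0.0173 to 0.0468 (limma). Csf3r differed by 0.17 (SE 0.14, adjusted p = 0.483) and was the brightest on every knockout array, at 3.31, 3.14 and 3.14. The neutrophil sums, 19.5 to 20.6 against 9.94 to 10.4, include Csf3r, which makes up most of the knockout sums. B cell markers were below 0 in 4 of 4, with a median of -0.71 and sums that overlapped.

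Tissue from beyond the colon was looked for because paralogue 13 genes are also active in prostate and anorectal tissue. Squamous epithelium markers were above 0 in 6 of 7 tested genes with a median of 0.47 and none past the threshold. Their sums, 8.40 to 10.7 against 10.4 to 11.8, came almost wholly from 1 Trp63 probe at 2.99 to 3.47, whereas the other Trp63 probe and those of Dsg3 and Sprr1b were not well above background on any array. Of 7 prostate and urothelium markers, 4 were well above background on all 6 arrays and were tested. Of these, 2 were above 0 and 2 below, with a median of 0.11 and none past the threshold. Pbsn differed by 0.63 (SE 0.18, limma adjusted p = 0.0916), with every knockout above every control. Upk1b differed by -0.87 (SE 0.45, limma adjusted p = 0.263), with every knockout below. The list summed to 0.687 to 0.697 against 0.458 to 0.713, and Msmb and Upk2 were not well above background on any array. Of 9 skeletal muscle genes, 2 passed and were higher, beside 1.55% of all tested probes. Myh1 rose by 2.07 (SE 0.19, adjusted p = 0.0160). Myh2, not well above background on any control array and so tested only because of the knockouts, rose by at least 4.61-fold. Its limma adjusted p of 0.0103 belongs to the measured difference of 3.74, not to this bound. A second Myh2 probe was not well above background on any array. The other 7 did not pass, and the skeletal muscle sums overlapped, at 2.12 to 2.86 against 2.47 to 4.67. Among small intestine markers, Sis was not well above background on any array, and 4 of 5 tested genes were above 0 with a median of 0.65 and none past the threshold. The highest of them, Slc10a2, differed by 2.92 (SE 1.52, limma adjusted p = 0.269). It was well above background on 2 control arrays and all 3 knockout arrays, so it was tested only because of the knockouts.

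**Figure D3:**
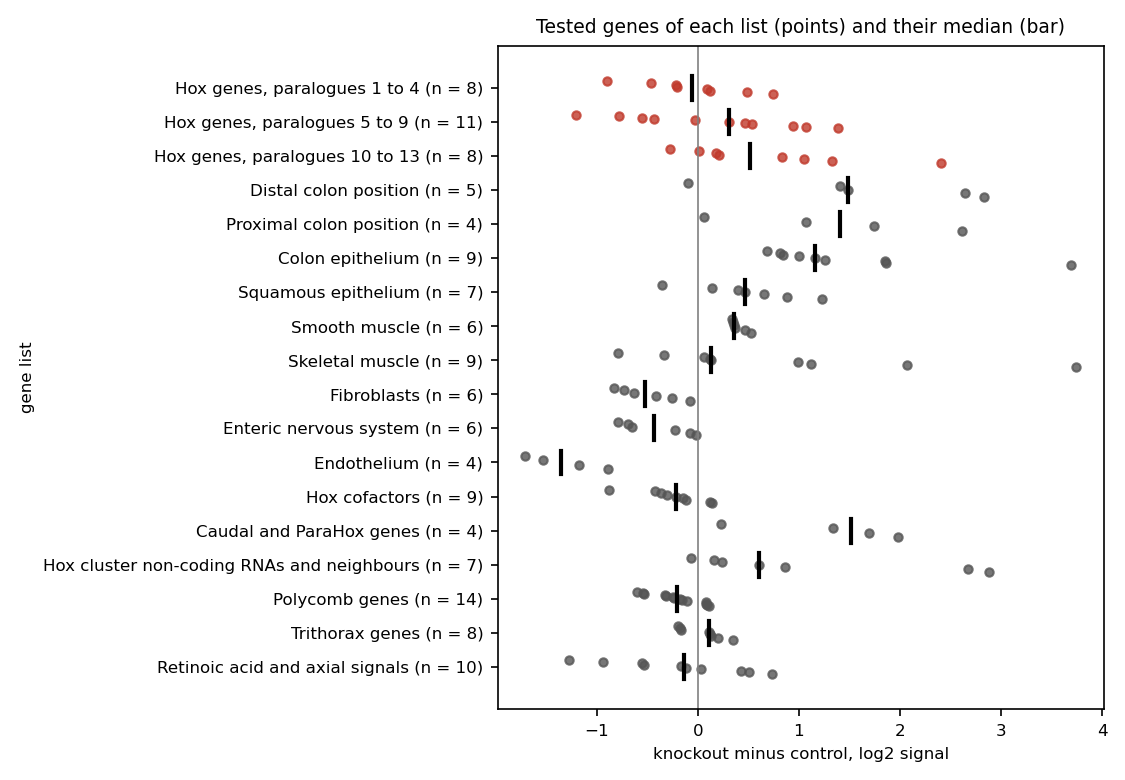
Differences between knockout and control (log2 signal) of the tested genes of each list, with 1 point per gene and a bar at the list's median; Hox genes are in red and the other lists in grey. Distal colon, proximal colon, colon epithelium and Caudal genes have medians above 1. Hox paralogues 10 to 13 lie at 0.52, or at 0.21 without Hoxc10. Fibroblast, enteric nervous system and endothelial markers lie below 0. Some points, Hoxc10, Scnn1g, Fabp1 and Pdx1 among them, are genes tested only because of the knockouts.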

How the data were processed

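Expression was measured on 6 Agilent arrays, 1 per animal. Per the file headers, the array design was 074809 and the scanner images were quantified by Agilent Feature Extraction, version 11.5.1.1; the submitters' processing notes give version 10.7. The labels name the dye Cy3, whereas each deposited file holds the red channel, which was used. The deposited processed signal is an intensity on a linear scale, background-subtracted and not scaled between arrays, per the file headers. The deposited value table holds the same intensities (lowest correlation with the processed signal 0.9999993) and served as an alternative.

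Here the signal was taken to log2, the array's 75th percentile was subtracted, and spots that the deposited flags mark as non-uniform or population outliers were treated as missing. Probes well above background on all 3 arrays of a group with at least 2 usable values per group were tested with limma 3.58.1 in R 4.3.3 (two-sided, genotype only, Benjamini-Hochberg over 35351 probes at 5%). Precision is limited by the number of arrays, and the smallest exact permutation p for 3 against 3 is 0.1. Probes were named through RefSeq accessions on GRCm38.p6, matching 33767 of 56605 probes; the files place probes on mm9, so no coordinates are given beyond the promoter windows, which carry their own build. The tested probe with the highest mean stood for a gene. Values on every array are given for Hox genes that passed at 5%, had an unadjusted p under 0.05, had groups that did not overlap or belong to paralogue group 13, and other genes are named where they passed or mark position. The procedure was tested on simulated data. Alternatives were normexp (offset 50) with quantile scaling, quantile scaling, median centring, no filter on dim probes, marked spots kept, array weights, the value table, the mean of a gene's probes and each array left out. The Hox genes and all lists were chosen with earlier results of these data known. A few single genes are not reported here, though they count in the totals.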

Additional observations from a re-analysis of the deposited data

How the results depend on the processing

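The number of Hox genes past 5% was 0 in the main test, with marked spots kept, without the filter on dim probes, with the value table and with the mean of a gene's probes. It was 1 with normexp and quantile scaling, with quantile scaling and with median centring (Hoxa6 each time), 8 with array weights, and 0 to 1 when an array was left out. Over all probes, 1403 passed in the main test, 2773 with normexp and quantile scaling, 2185 with quantile scaling, 2249 with median centring, 484 without the filter, 9292 with array weights, and 40 to 2114 when an array was left out (2114 without control 1, 71 without control 2, 90 without control 3, 263 without knockout 1 and 40 without knockout 3). Of the probes that passed, 39.1% were higher in the knockouts, and 49.4% with array weights. No scaling moved the median of all probes by more than 0.1.

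When 1 array was left out, 24 to 28 Hox genes could be tested, so the medians cover different genes. The Hox median ranged from -0.00 to 0.30 and that of paralogues 1 to 4 from -0.13 to 0.11. The median of paralogues 5 to 9 ranged from 0.10 to 0.31 and that of paralogues 10 to 13 from 0.063 to 1.30. Islr ranged from -2.58 to -2.34 and missed the threshold without knockout 3 (-2.39, adjusted p = 0.0580). For the 13 tested Hox genes given array by array, the sign was kept in every alternative that gave a value; 163 of these values stayed on the same side of the threshold and 11 passed at 5% where the main value did not. Hottip and Evx1 were followed through the alternatives only after their values were seen, and Hottip also missed the threshold without the filter on dim probes (2.67, adjusted p = 0.0723). The cause of these changes was not tested. No paired analysis was possible because the labels give the animals no shared numbers and replicates were numbered in accession order.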
